A study of Zea mays with 4 samples.

Results

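The circadian clock genes described here are the 8 maize genes listed as cca1, lhy1, gi1, Gi2, a pair of toc1 copies and a pair of prr37/prr73-type copies. They were chosen by gene identifier from a table of 39179 genes, and all 8 were found there. The tables used here pair only Gi2 with its identifier, and the other names are those of the list that defined the group. RNA came from the female inflorescence (FI), bagged before silk emergence, and from the uppermost stem internode (TI) of greenhouse-grown Puma hybrid plants at 60 DAS (days after sowing, reproductive stage R1), without pollination and with no other treatment. Each tissue had 2 libraries that the methods call biological replicates. All plants were of the same hybrid. The methods place the collection of all tissues in the morning hours, and the clock time at which each library was taken is not given in the sources used here. A difference of tissue and a difference of collection time within that morning therefore cannot be told apart.

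The plant clock is a set of transcription loops that gives genes a daily rhythm. In Arabidopsis, where it is best known, the MYB-type factors CCA1 and LHY peak near dawn and repress genes of the evening, the pseudo-response regulators (PRR) follow through the day and repress CCA1 and LHY, and TOC1 and GIGANTEA (GI) peak towards evening. GI is a large plant protein that stabilizes an F-box protein of the clock and promotes flowering, and cereals keep the same families, often as pairs of copies.

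The 4 libraries held between 1455729 and 2431447 counts in the count table, and a further table gave FPKM, fragments scaled to transcript length and library size, per gene. Because the FPKM of a gene moves in steps of 1 fragment, whole fragments could be recovered, between 2373386 and 3876892 per library. They are the fewest fragments that the steps allow. The tissue labels were checked with marker genes in TMM-scaled counts per library size (CPM). Of the 8 inflorescence markers analysed, 5 had a higher level in FI replicates 1 and 2 than in either TI library, with the floral MADS-box gene zag1 at 95.1 and 57.3 in FI and at 1.13 in TI replicate 1, but at 28.3 in TI replicate 2. Summed over these 8, the level ran from 216 to 291 in FI and stood at 242 in replicate 1 and 212 in replicate 2 of TI, with kn1 and td1 higher in TI, and bd1 had 0 counts in 3 of the 4 libraries. Markers of green tissue were higher in both TI libraries in 5 of 5, with a summed level of 69.6 to 125 in FI, 601 in TI replicate 1 and 183 in TI replicate 2. For me3 this order rested on the scaling, with 7 counts in FI replicate 2 and 6 in TI replicate 2. Both TI libraries were above both FI libraries in 26.6% of the 15479 genes tested on counts. The share with the opposite order on counts is not given here. Markers of the lignified stem did not separate the tissues as a group, with 1 of 4 higher in TI (bm1), 2 higher in FI (cesa10 and cesa12) and bk2 overlapping. Cesa12 had at most 5 counts in a library. Between the TI libraries, the 5 inflorescence markers that were higher in FI had a higher level in replicate 2, kn1, td1 and the 5 green-tissue markers had a lower one, and bd1 was at 0 in both. The part of these differences in the clock gene values was not tested. In bulk tissue, fewer cells that express a gene and less RNA per cell cannot be told apart.

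**Figure D1:**
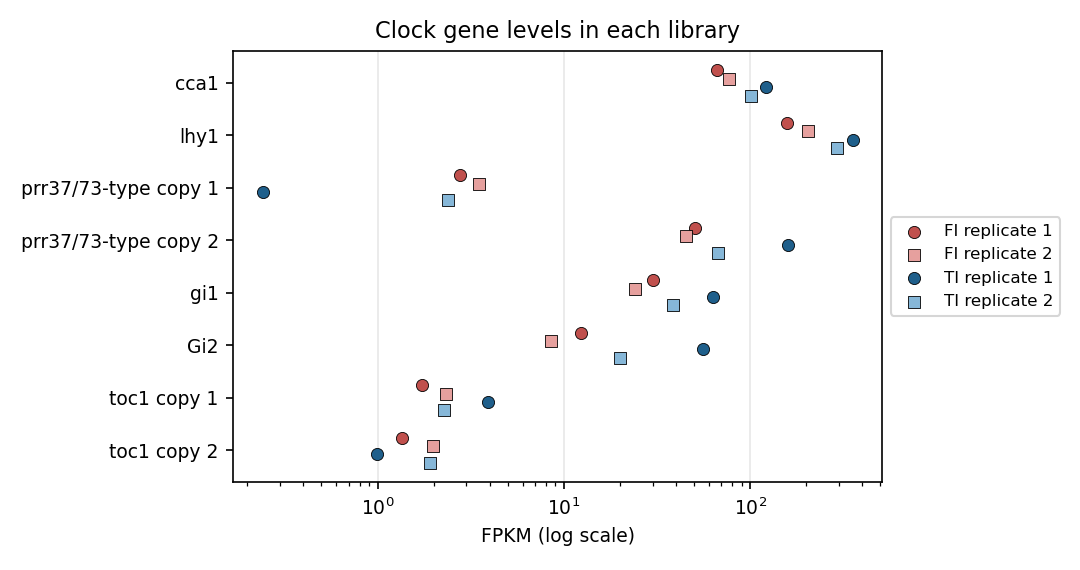
FPKM (log axis) of the 8 clock genes in each of the 4 libraries, with circles for replicate 1 and squares for replicate 2. For cca1, lhy1, gi1, Gi2 and the prr37/prr73-type copy 2 both TI libraries lie to the right of both FI libraries, with TI replicate 1 the highest.

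Most clock genes had a higher FPKM in the internode libraries than in the inflorescence libraries, although no single difference passed the threshold with all 4 libraries. In 5 of the 8 (cca1, lhy1, the prr37/prr73-type copy 2, gi1 and Gi2) the lower TI library was still above the higher FI library, a pattern seen in 27.5% of the 19531 genes whose mean FPKM reached 1. The opposite order was seen in 1 of the 8, the prr37/prr73-type copy 1, against 33% of all genes, and the toc1 copies overlapped. In either direction the tissues did not overlap for 6 of the 8, and for 60.5% of all genes. Summed over the 8 genes, FPKM came to 321 and 366 in FI against 761 and 527 in TI. The median log2FC (FI minus TI, on the log2(FPKM + 1) scale) was −0.74 over the 8 genes and 0.06 over all genes tested.

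An FDR under 0.05 was the threshold for a call. By limma on log2(FPKM + 1), 0 of the 8 clock genes and 0% of the 19531 genes passed, and the lowest FDR of a clock gene was 0.234. Of the 8, 4 were lower in FI with an unadjusted p under 0.05 (cca1, lhy1, gi1 and Gi2), against 9.83% of all genes, and 0 were higher in FI, against 9.37%. With a library left out, those lower in FI at that p numbered 0 without FI replicate 1 (4.03% of all genes), 1 without FI replicate 2 (3.77%), 3 without TI replicate 1 (7.39%) and 5 without TI replicate 2 (15.1%). Over all genes, 3749 had an unadjusted p under 0.05. On the recovered fragments, edgeR's quasi-likelihood test passed 0 genes (0%), and its exact test passed 903 genes (5.01%), 0 of the 8 clock genes among them. With 2 libraries against 2, the smallest two-sided p of an exact permutation test for 1 gene is 0.33.

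The morning gene lhy1 was the most abundant of the group in every library. The other morning gene, cca1, came next in FI, but by mean FPKM in TI it stood below the prr37/prr73-type copy 2. Lhy1 (Zm00001d049543), a MYB-type repressor of evening genes in Arabidopsis, stood at an FPKM of 157 and 203 in FI against 355 and 293 in TI. The TI libraries were thus both above the FI libraries, and the tissue means were 180 ± 32.5 (SD, n = 2) for FI and 324 ± 44.0 for TI. Its log2FC was −0.85 (95% interval −1.46 to −0.24, FDR = 0.234 by limma). The gene lay within the top 0.572% of all genes by FPKM in every library, and supplied 46.6% to 55.6% of the summed FPKM of the 8 clock genes.

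For its partner cca1 (Zm00001d024546), which in Arabidopsis acts on the same evening genes, FPKM was 65.9 and 77.0 in FI against 122 and 101 in TI. The tissues again did not overlap, at 71.5 ± 7.82 (SD, n = 2) for FI and 111 ± 14.5 for TI, with a log2FC of −0.63 (95% interval −1.13 to −0.13, FDR = 0.242 by limma). Lhy1 and cca1 shared the same order of libraries, with TI replicate 1 highest, then TI replicate 2, FI replicate 2 and FI replicate 1. The ratio of lhy1 to cca1 in FPKM was 2.38 and 2.64 in FI against 2.92 and 2.89 in TI, slightly higher in both TI libraries. The FI libraries also differed from each other in this ratio. Counting error, 3.24% to 3.95% per library for cca1 alone, was not carried into it, and no share over all genes was computed. Of the 8 clock genes these were the ones with the smallest gap between the TI libraries, 1.20-fold for cca1 and 1.21-fold for lhy1.

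Gi2 (Zm00001d039589), a copy of GIGANTEA, showed the largest ratio of TI to FI among the 8 genes. Its FPKM was 12.4 and 8.58 in FI against 55.9 and 20.01 in TI, with means of 10.5 ± 2.69 (SD, n = 2) and 38.0 ± 25.4, a ratio of 3.62. The tissues did not overlap, but TI replicate 1 was 2.79-fold above TI replicate 2. The log2FC was −1.61 (95% interval −3.00 to −0.22, FDR = 0.247 by limma).

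In the count table Gi2 is the transcript GRMZM5G844173_T01, with 835 and 484 counts in FI against 2648 and 767 in TI. On those counts, tested by edgeR's quasi-likelihood test, the 95% interval of its log2FC of −1.84 ran from −3.28 to −0.41 (FDR = 0.268). Without TI replicate 1 that log2FC was −0.86, and without TI replicate 2 it was −2.37, with TI a lone library in either fit. The size of the difference therefore depended on which TI library was kept. Its direction could not have turned in these fits, because the scaled Gi2 level of each TI library exceeded that of either FI library.

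The other GIGANTEA copy, gi1 (Zm00001d008826), whose loss is known to speed flowering in maize, stood at an FPKM of 29.9 and 23.9 in FI against 63.4 and 38.5 in TI. Its means were 26.9 ± 4.23 (SD, n = 2) for FI and 51.0 ± 17.6 for TI, and the log2FC was −0.86 (95% interval −1.64 to −0.08, FDR = 0.253 by limma). The gene model that carries the name gigantea1 in RefSeq, GRMZM2G107101, has 3 transcripts in the count table. They held only 14 and 6 counts in FI against 31 and 19 in TI, where 1065 and 762 recovered fragments in FI and 1718 and 846 in TI stood behind the FPKM. From these few counts log2FC was −1.82 (95% interval −3.21 to −0.43, FDR = 0.266 in edgeR's quasi-likelihood fit). Gi2 and gi1 both had an unadjusted p under 0.05 on counts in that fit, lower in FI, against 9.67% of 15479 genes. Gi2 was matched to the counts through a supplementary table of the study of these same libraries. Its direction on counts is therefore not taken as independent evidence.

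The balance of the GIGANTEA pair did not overlap between the tissues. Gi2 made up 29.3% and 26.4% of the summed FPKM of the pair in FI against 46.8% and 34.2% in TI. The share was higher in either TI library than in FI, with means of 27.8% ± 2.04 (SD, n = 2) for FI and 40.5% ± 8.96 for TI. No test of this share across all genes was run. How reads shared by the copies were assigned is not given in the sources used here.

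The prr37/prr73-type copies had opposite orders of the tissues. Copy 2 (Zm00001d047761), a pseudo-response regulator of the type that represses the morning genes in Arabidopsis, stood at an FPKM of 50.3 and 45.3 in FI against 160 and 67.5 in TI. The TI libraries lay above the FI libraries, with 47.8 ± 3.54 (SD, n = 2) for FI and 114 ± 65.4 for TI, and TI replicate 1 was 2.37-fold above TI replicate 2. The log2FC of copy 2 was −1.11 (95% interval −2.26 to 0.05, FDR = 0.263 by limma).

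Copy 1 (Zm00001d007240) was a low gene, with an FPKM of 2.77 and 3.51 in FI against 0.242 and 2.39 in TI. These values stand for 15 and 17 fragments in FI, 1 in TI replicate 1 and 8 in its partner. The FI libraries were above both TI libraries, and the log2FC was 1.00 (95% interval −0.50 to 2.51, FDR = 0.349 by limma). Against TI replicate 1 alone the ratio of FI was 12.9, with an exact counting interval of 2.15 to 523, and against TI replicate 2 it was 1.30 (0.588 to 3.27). Its difference thus rested on TI replicate 1, without which the log2FC was 0.28. Such intervals cover counting error only, since PCR copies of a molecule are not told apart.

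**Figure D2:**
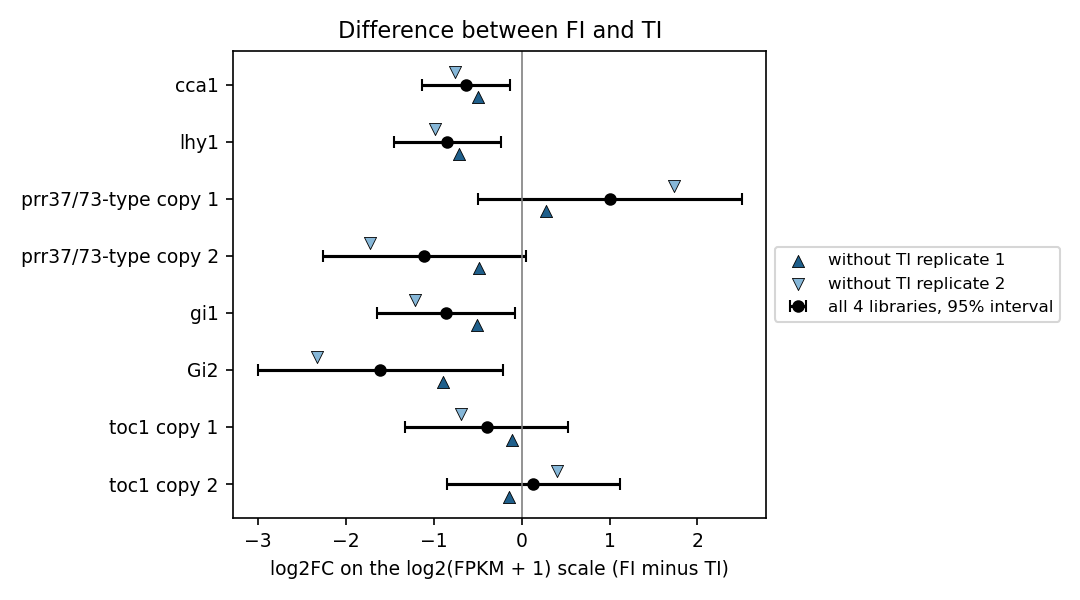
Difference between FI and TI for each clock gene as log2FC (FI minus TI) on the log2(FPKM + 1) scale, with the 95% interval of limma (black) and the value without TI replicate 1 or without TI replicate 2 (triangles). For all 8 genes the value without TI replicate 2 is farther from 0 than the value with all 4 libraries, and for toc1 copy 2 the value without TI replicate 1 lies on the other side of 0.

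The toc1 copies, which carry the name of the evening repressor of CCA1 and LHY in Arabidopsis, were low in all libraries and did not separate the tissues. Copy 1 (Zm00001d017241) stood at an FPKM of 1.74 and 2.34 in FI against 3.89 and 2.26 in TI, from 8 to 17 fragments per library. Its log2FC was −0.40 (95% interval −1.33 to 0.53, FDR = 0.527 by limma). Copy 2 (Zm00001d051114) had 1.35 and 1.98 in FI against 0.995 and 1.91 in TI, from 9 to 21 fragments per library, with a log2FC of 0.13 (95% interval −0.85 to 1.11, FDR = 0.852 by limma). Taken over the libraries of a tissue, the ratio of TI to FI in fragments was 1.56 for copy 1, with an exact counting interval of 0.846 to 2.91, and 0.855 for copy 2 (0.485 to 1.48). Both intervals include 1, so a difference between the tissues was not detectable for toc1 at this depth.

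**Figure D3:**
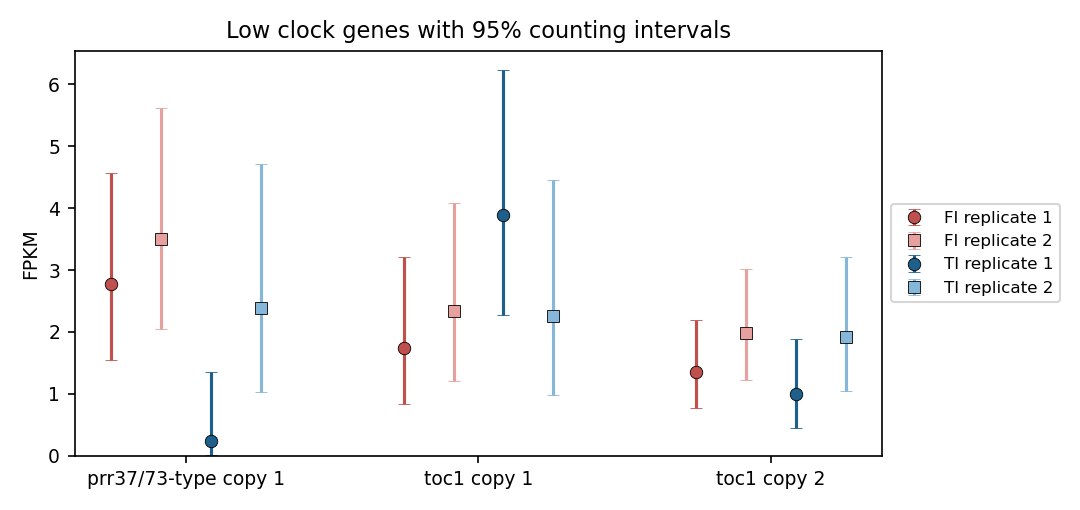
FPKM of the 3 clock genes with few fragments in each library, with exact 95% Poisson intervals from the recovered fragments. The intervals of the 4 libraries overlap for each toc1 copy, and for the prr37/prr73-type copy 1 TI replicate 1, with 1 fragment, lies below the interval of either FI library.

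Within a tissue the clock genes spanned a wide range of levels. In FI the order of mean FPKM was lhy1, cca1, prr37/prr73-type copy 2, gi1, Gi2, prr37/prr73-type copy 1, toc1 copy 1 and toc1 copy 2, from 180 to 1.66. In TI it was lhy1, prr37/prr73-type copy 2, cca1, gi1, Gi2, toc1 copy 1, toc1 copy 2 and prr37/prr73-type copy 1, from 324 to 1.32. The libraries of neighbours overlapped in TI for copy 2 and cca1, for gi1 and Gi2, and for toc1 copy 2 and prr37/prr73-type copy 1, and in FI for the toc1 copies. The morning pair together made up 69.4% and 76.6% of the summed FPKM of the 8 genes in FI, against 62.6% and 74.8% in TI, and here the tissues overlapped.

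Set against the morning pair within a library, the GIGANTEA genes varied more between replicates than between tissue means. The ratio of gi1 and Gi2 to cca1 and lhy1, as summed FPKM, was 0.190 in FI replicate 1 and 0.116 in FI replicate 2, and 0.250 in TI replicate 1 and 0.149 in TI replicate 2. It was 1.63-fold higher in replicate 1 than in replicate 2 of FI and 1.68-fold higher in TI, while the TI mean was 1.30 times the FI mean. FI replicate 1 lay above TI replicate 2, so the tissues overlapped. In FI the GIGANTEA genes were higher in replicate 1 and the morning genes in replicate 2, while in TI all 4 were higher in replicate 1, the GIGANTEA genes by more.

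The prr37/prr73-type copy 2 gave the same order of libraries when set against the morning pair, with 0.226 and 0.162 in FI against 0.336 and 0.171 in TI. Set against the GIGANTEA pair it was nearly level, with 1.19 and 1.39 in FI against 1.34 and 1.15 in TI. Summed toc1 stood at 0.0139 and 0.0154 of the morning pair in FI, above the 0.0102 and 0.0106 in TI. The toc1 sums alone overlapped, at 3.09 and 4.31 in FI against 4.89 and 4.17 in TI, while the morning pair was higher in TI. A toc1 copy had only 8 to 21 fragments in a library. Counting error was not carried into this ratio, and no share over all genes was computed. Whether same-numbered libraries were collected together is not stated, and the part of collection time in these ratios was not tested.

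**Figure D4:**
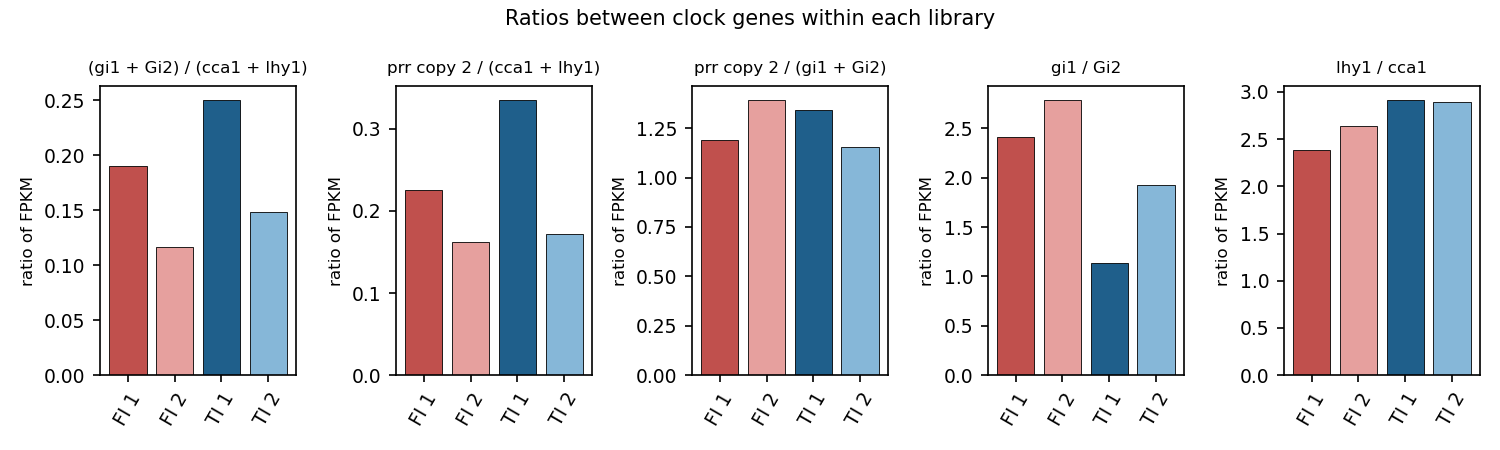
Ratios of FPKM between clock genes within each of the 4 libraries (bars from 0, 1 bar per library). The ratio of gi1 and Gi2 to cca1 and lhy1 is higher in replicate 1 of both tissues (0.190 and 0.250) than in replicate 2 (0.116 and 0.149), the ratio of gi1 to Gi2 is lower in TI, and lhy1 to cca1 stays between 2.38 and 2.92.

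The TI libraries lay farther apart than the FI libraries for 7 of the 8 clock genes, against 64.1% of all genes tested. The median gap between the TI libraries was 0.64 on the log2(FPKM + 1) scale over the 8 genes and 0.37 over all genes, and between the FI libraries it was 0.30 and 0.23. In 7 of the 8, toc1 copy 2 being the exception, TI replicate 2 lay between the FI mean and TI replicate 1, which held for 60.3% of all genes. For Gi2 TI replicate 1 was 5.33 times the FI mean and TI replicate 2 was 1.91 times that mean, while for lhy1 the same ratios were 1.97 and 1.63.

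Leaving out TI replicate 2 changed the calls. Then 6 of the 8 clock genes had an FDR under 0.05 by limma, against 27.4% of all genes, with the toc1 copies as exceptions. Of these, 5 were lower in FI, against 9.1% of all genes, and the prr37/prr73-type copy 1 was higher, against 18.3%. FDR was 0.00532 for Gi2, 0.00478 for the prr37/prr73-type copy 2, 0.0168 for gi1, 0.0423 for lhy1 and 0.0486 for cca1. In that fit TI is a lone library that is assumed to vary as the FI libraries did. For the prr37/prr73-type copy 1 that library held 1 fragment, and the fit on FPKM takes no account of fragment numbers. Leaving out TI replicate 1 left 0 of the 8 with an FDR under 0.05 by limma, against 0.0307% of all genes.

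Over only 4 libraries, other genes lay close to the profile of a clock gene pair. Of 19531 genes, 45 lay nearer to the mean profile of cca1 and lhy1 than those genes themselves, and 314 nearer to that of gi1 and Gi2, by Euclidean distance of centred log2(FPKM + 1). They are not named here, because the reference gene table used here does not carry the identifiers of the FPKM table.

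Other genes of the clock and its light input were examined in the count table, where names could be matched. Of 3 further pseudo-response regulator genes, 2 had enough counts to test. The TI libraries were above the FI libraries in both, a pattern seen in 26.6% of the 15479 genes tested. In edgeR's quasi-likelihood fit both were lower in FI with an unadjusted p under 0.05, against 9.67% of all genes, and 0 had an FDR under 0.05. Both tested genes come from a list that the study drew from these same libraries, so their direction is not independent evidence.

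A gene similar to Arabidopsis PRR5, a daytime repressor of the morning genes (Zm00001d021291, gene model GRMZM2G179024), stood at an FPKM of 13.4 and 10.4 in FI against 67.5 and 50.5 in TI. Counts were 246 and 183 in FI against 940 and 595 in TI, and their log2FC was −2.34 (95% interval −2.98 to −1.71, FDR = 0.201 in edgeR's quasi-likelihood fit). In such fits its FDR was 0.00254 without TI replicate 1, when 170 genes passed, and 0.000108 without TI replicate 2, when 3671 passed, and edgeR's exact test on all libraries gave 4.55e-07. TI replicate 2 was here nearer to TI replicate 1 than it was for Gi2. A further gene similar to PRR5 (Zm00001d006212) stood at 6.16 and 9.19 in FI against 23.9 and 18.7 in TI, and log2FC on counts was −1.41 (95% interval −2.31 to −0.51, FDR = 0.241 in edgeR's quasi-likelihood fit). The gene named PRR59 had only 1 and 7 counts in FI against 16 and 7 in TI and did not pass the filter on low counts. Its order of the tissues rested on the scaling, since FI replicate 2 and TI replicate 2 had the same count.

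Of 7 genes of light input and flowering with counts, 5 could be tested. With an unadjusted p under 0.05, 2 were lower in FI, against 9.67% of all genes, and 0 were higher in FI, against 6.11%. The first was a gene similar to the blue-light receptor gene CRY1, also taken from the study's list, with 15 and 46 counts in FI against 100 and 74 in TI (log2FC −1.98, 95% interval −3.50 to −0.46, FDR = 0.266 in edgeR's quasi-likelihood fit). The red-light receptor gene PhyB2 had 156 and 207 counts in FI against 300 and 188 in TI, which came to a log2FC of −0.91 after scaling (95% interval −1.67 to −0.15, FDR = 0.283 by the same test). Conz1, the maize relative of the flowering gene CONSTANS, which acts below GIGANTEA in Arabidopsis, stood the other way round, with 75 and 109 counts in FI against 27 and 41 in TI. Its log2FC was 0.91 (95% interval −0.21 to 2.03, FDR = 0.363 by the same test). The florigen gene ZCN8 and the flowering regulator gene id1 had at most 17 counts in a library and were not tested.

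**Figure D5:**
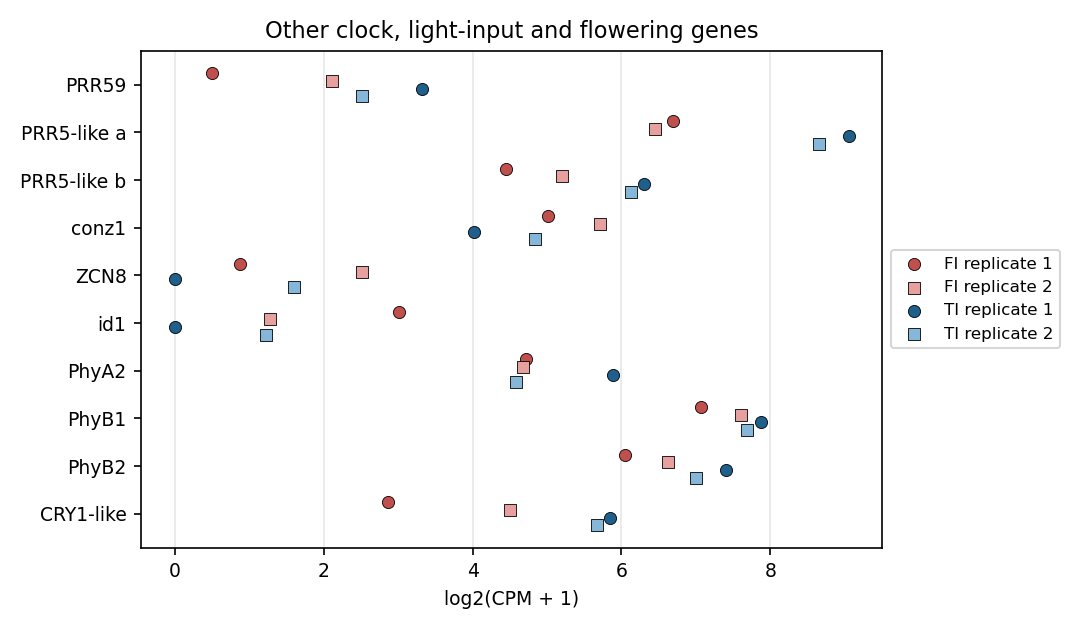
TMM-scaled CPM, as log2(CPM + 1), of 10 other clock, light-input and flowering genes in each library. The PRR5-like genes, PRR59, PhyB1, PhyB2 and the CRY1-like gene are higher in TI replicates 1 and 2 than in either FI library. Conz1 and id1 are higher in both FI libraries. Between FI replicate 2 and TI replicate 2, the order of id1 rests on 3 against 2 counts, and that of PRR59 on 7 counts in each.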

How the data were processed

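Paired-end reads were cleaned with Trimmomatic and aligned with TopHat 2.0.13 by the authors. The deposited counts are whole read numbers for each transcript, named as in annotation version 3 and not normalized. The labels list B73 RefGen_v3, and the counting tool is not given in the sources used here. The authors made the FPKM values per gene with CLC Genomics Workbench on B73 RefGen_v4. Their deposited fold changes and FDR were not used. The count table calls the other tissue floral stem, which was taken as FI because the series has 2 tissues.

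FPKM was tested as log2(FPKM + 1) with limma 3.58.1 (variance trend) for genes whose mean FPKM reached 1, a scale that understates the change of low genes. Counts were summed per gene model, filtered by filterByExpr (minimum count 10, total 15), scaled by TMM and tested with edgeR 4.0.16 (quasi-likelihood) under R 4.3.3. FDR is Benjamini-Hochberg over all genes tested. Alternatives included DESeq2 1.42.0, edgeR's exact test, other filters, scalings and pseudocounts, a replicate block and each library left out. Fragments were recovered from the FPKM steps of all 24149 genes above 0 in at least 2 libraries (tolerance 0.003) as the fewest whole numbers in proportion. The fits were also run on simulated data, with less spread between libraries than estimated here and larger changes than those of the clock genes. That run does not show how often the fits detect changes of the size seen here.

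Named are the 8 clock genes and, of the clock, light-input and flowering lists, at most 6 genes with an unadjusted p under 0.05. These were looked for on counts, since FPKM identifiers were matched for few of them. The other named genes were singled out after their values were seen. List genes were matched through RefSeq synonyms or the study's tables. Members and lists were chosen with earlier results of these data known. Of the 8 clock genes only Gi2 and gi1 were matched to the count table. No sequence is shown.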

Additional observations from a re-analysis of the deposited data

How the results depend on the processing

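The direction of FI against TI held for 7 of the 8 clock genes under every alternative on FPKM that held them (the toc1 copies and the prr37/prr73-type copy 1 lie under a mean FPKM of 5), and for Gi2 and gi1 under every alternative on counts, where gi1 per transcript could be tested for 1 of its 3 transcripts only (−1.80). The exception was toc1 copy 2, whose log2FC moved from 0.13 to −0.22 with quantile normalization, −0.04 without FI replicate 2 and −0.14 without TI replicate 1, with 0.41 without TI replicate 2. For the 6 clock genes whose tissues did not overlap, leaving out a library could not reverse the direction on FPKM. The same limit applied to Gi2 and gi1 on scaled counts, where their tissues did not overlap either. Changing the filter, the variance trend or the block leaves the log2FC of limma as it was. For Gi2 the log2FC on FPKM lay between −2.33 and −0.89. The count of genes with an FDR under 0.05, 0 on FPKM by limma, was 3 with quantile normalization and 903 by the exact test on recovered fragments, and lay between 0 and 5355 with each library left out. On counts, 0 by the quasi-likelihood test, it was 324 by DESeq2, 477 with all low genes kept and 719 by the exact test, and lay between 0 and 3671 with each library left out. With all low genes kept, Gi2 had an FDR of 0.0281 on counts. The clock genes whose tissues did not overlap, 6 with all libraries, numbered between 6 and 8 with each library left out, when the tissues of 77.4% to 85.2% of all genes did not overlap, against 60.5% with all libraries. Leaving out a library cannot lower this number. Those lower in FI with an unadjusted p under 0.05, 4 with all libraries, numbered between 0 (without FI replicate 1) and 5 (without TI replicate 2), with 1 without FI replicate 2, and the cause was not tested. These last counts were chosen after seeing the data.

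With a replicate block the FDR of Gi2 was 0.214 on FPKM by limma and 0.260 on counts, and 0 genes passed in either table. Deviations of same-numbered libraries correlated at 0.17 on FPKM and 0.16 on counts, and the block changed no call at an FDR of 0.05. With 2 libraries per tissue, and 8 to 21 fragments of a toc1 copy in a library, depth limits what can be seen for the low genes.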
